A study of Mus musculus with 28 samples.

Results

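The proteasome genes of the aged mouse hippocampus were followed after injections of human plasma. Members were the genes whose symbol in the authors' table of named rows begins with Psm, a letter from a to g and a number, each represented by its row with the highest mean. There were 49 such genes among 22256 genes with a symbol, from 53 rows, and 47 of them passed the filter on dim rows and were tested among 15781 genes. By its role 1 of them is no proteasome gene: Psmc3ip, a cofactor of recombination in meiosis, is a member by its symbol. Psma5, an alpha subunit of the core, and Psma8, an alpha subunit known from the testis, lay below the filter at 4.68 on the log2 scale. Psma5 was between 2.75 and 4.22 on the 28 arrays and Psma8 between 3.72 and 4.69, and neither was tested.

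The 28 arrays formed 4 groups of 7. Mice received plasma of human umbilical cord blood (cord plasma), plasma of young donors (young plasma), plasma of old donors (old plasma) or phosphate-buffered saline (PBS), in 6 intravenous injections. All animals, the PBS group included, were NSG mice with a mean age of 14 months. NSG is an immunodeficient background that carries the Prkdc scid and Il2rg null alleles and lacks mature T, B and natural killer cells. Whether each array stands for its own animal is not in the labels, so the p-values reflect the spread among these samples, whose number limits the precision. Markers of pyramidal neurons and of dentate granule neurons were measured above the filter, 4 of 4 and 3 of 3 genes. Markers of lymphocytes were 1 of 2 and of neutrophils and monocytes 1 of 4. The array medians ran from 4.96 to 5.09. PBS replicate 4 stood apart in interferon-stimulated genes: their mean log2 intensity was 7.12 there and between 5.71 and 5.98 on the other 27 arrays.

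The proteasome is the large protease that degrades proteins tagged with ubiquitin. Its barrel-shaped core is built of alpha rings, which gate the entrance, and beta rings, which hold the cutting sites. A regulatory particle on the end of the barrel recognises, unfolds and feeds in the substrate with a ring of ATPases and a lid of further subunits. Interferon induces replacement beta subunits and an activator cap that favour peptides for antigen presentation, while the thymus uses a beta subunit of its own. In neurons the proteasome takes part in synaptic plasticity and in the removal of damaged proteins.

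No member passed an adjusted p of 0.05 in limma in any of the 7 comparisons or in the F-test over the 4 groups, with Benjamini-Hochberg adjustment over all genes tested. The share of all genes that passed was 0% for each plasma against PBS, 0% for old against cord plasma and for young against cord plasma, 0.00634% for old against young plasma, 0.019% for the plasma groups' mean against PBS and 0.00634% for the F-test. At an unadjusted p under 0.05, limma gave 6 members below and 1 above PBS with cord plasma, where the share of all genes was 3.78% below and 4.96% above. With young plasma 1 member, Psmc3ip (no proteasome gene), lay below and 1 above PBS, against 5.11% and 6.07% of all genes. With old plasma 4 lay below and 0 above PBS, against 4.15% and 6.62% of all genes. For the mean of the plasma groups 5 lay below and 1 above PBS, against 4.83% and 7.53% of all genes. The F-test gave 4 members at an unadjusted p under 0.05, Psma2, Psma6, Psmb11 and Psmc6, against 9.83% of all genes. These comparisons share the PBS arrays. In the authors' deposited table the unadjusted p was under 0.05 for 7 of 49 members with cord plasma, 4 with young plasma, 4 with old plasma and 6 over the 4 groups, where the share of all its rows was 9.27%, 8.16%, 10.7% and 9.53%. None of these passed after Benjamini-Hochberg adjustment over its 23410 rows.

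The differences of the members were small. Their median difference from PBS was -0.013 on the log2 scale with cord plasma, -0.026 with young plasma and -0.017 with old plasma, where the medians of all genes tested were 0.0061, -0.0018 and 0.0050. Below PBS lay 29 of 47 members with cord plasma, against 46.7% of all genes, 30 with young plasma, against 50.8%, and 28 with old plasma, against 47.5%. Centring each array on its median turned the medians to 0.011 with cord plasma and 0.020 with old plasma, where those of all genes became 0.030 and 0.042. With PBS replicate 4 left out, 24, 27 and 25 of the 47 members lay below PBS with cord, young and old plasma. The shares of all genes in that fit are not given here. The median size of a difference, without its sign, was 0.039 for members with cord plasma against 0.052 for all genes, 0.049 against 0.059 with young plasma and 0.036 against 0.055 with old plasma. Members also varied less between arrays of a group than genes in general, with a median SD within groups of 0.087 against 0.126. They were brighter too: the median of the 47 tested members ran from 8.10 to 8.29 over the arrays. That of all rows with a symbol, which include the dim rows that the filter removed, ran from 5.736 to 5.795. The part of brightness in the smaller spread and differences was not tested. The 95% interval of the difference from PBS lay within 0.2 on either side of 0 for 38 of 47 members with cord plasma, 39 with young plasma and 42 with old plasma. It lay within 0.3 for 46 members with cord plasma and 46 with young plasma, with Psmb11 the exception both times, and for all 47 tested with old plasma.

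**Figure D1:**
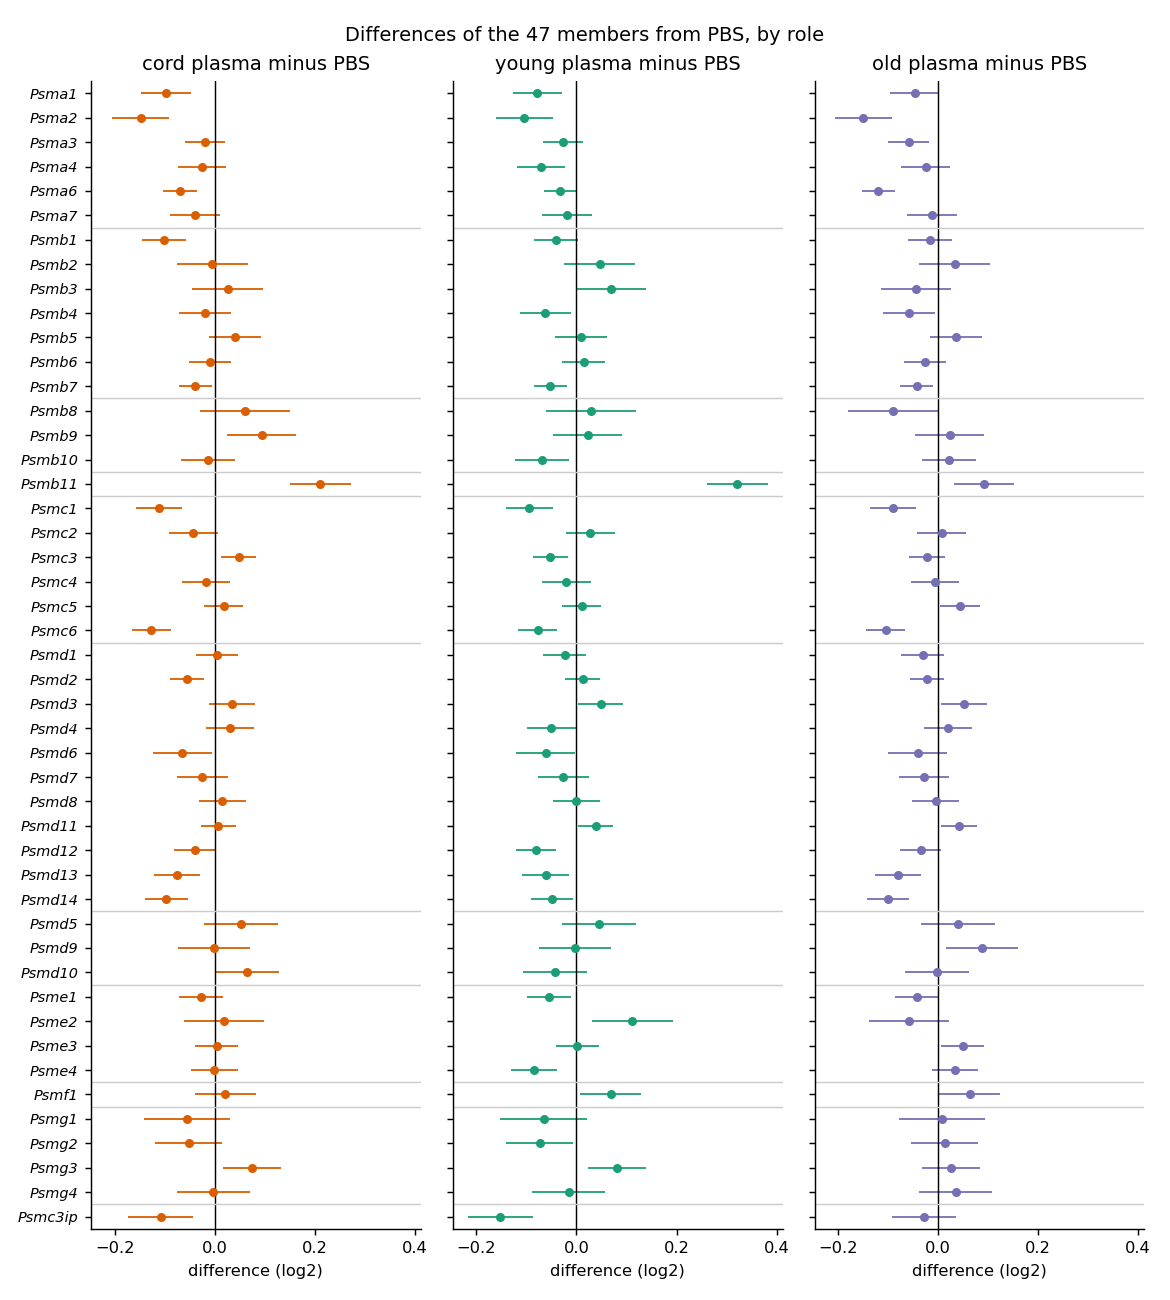
Difference from PBS on the log2 scale (x axis) of the 47 members tested (rows, grouped by role, with grey lines between roles) with cord, young and old plasma. Points are limma differences and bars 1 SE; most points lie close to 0, the 6 alpha subunits at the top lie left of 0 in each panel, and Psmb11 lies farthest to the right with cord and young plasma at 0.21 and 0.32.

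The alpha rings form the outer gates of the core. All 6 alpha genes tested lay below PBS with cord plasma, with young plasma and with old plasma, at median differences of -0.054, -0.051 and -0.053. The shares of all genes below PBS were 46.7%, 50.8% and 47.5%. After centring of each array, 5, 6 and 4 of the 6 lay below PBS, and without PBS replicate 4 the counts were 6, 5 and 5. The shares of all genes below PBS in these other fits are not given here. Psma2 had a lowest, median and highest log2 intensity of 8.45, 8.50 and 8.67 with cord plasma, 8.31, 8.56 and 8.83 with young plasma, 8.36, 8.52 and 8.59 with old plasma and 8.57, 8.67 and 8.76 with PBS. All groups overlapped, and the young plasma arrays spread widest, with replicate 7 the highest and replicate 3 the lowest of the 28. The difference of Psma2 from PBS was -0.15 (SE 0.06) with cord plasma, -0.10 (SE 0.06) with young plasma and -0.15 (SE 0.06) with old plasma, with adjusted p of 0.491, 0.501 and 0.328 in limma.

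Psma6 was the member with the smallest p for old plasma. It had a lowest, median and highest value of 8.15, 8.21 and 8.26 with cord plasma, 8.19, 8.22 and 8.34 with young plasma, 8.07, 8.17 and 8.22 with old plasma and 8.22, 8.28 and 8.33 with PBS. All 7 old plasma arrays lay below every PBS array, the single member of which this held, where the share of all genes was 0.0951%. The highest old plasma array, replicate 1, and the lowest PBS array, replicate 2, both read 8.22 when rounded. The difference from PBS was -0.12 (SE 0.03) with old plasma, -0.07 (SE 0.03) with cord plasma and -0.03 (SE 0.03) with young plasma, and the limma adjusted p with old plasma was 0.213. The other alpha genes, Psma1, Psma3, Psma4 and Psma7, differed from PBS by between -0.10 and -0.01.

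The beta rings carry the proteolytic sites. The 3 catalytic subunits of the constitutive core are Psmb5, Psmb6 and Psmb7. Psmb5, the subunit with chymotrypsin-like activity, differed by 0.04 (95% interval -0.07 to 0.15) with cord plasma, 0.0096 (-0.10 to 0.12) with young plasma and 0.04 (-0.07 to 0.14) with old plasma. Psmb6, with caspase-like activity, differed by between -0.03 and 0.01, and Psmb7, with trypsin-like activity, by between -0.05 and -0.04. Psmb7 also had the smallest spread of the members, with an SD within groups of 0.046. Among the structural beta subunits, Psmb1 had a lowest, median and highest value of 8.93, 9.04 and 9.13 with cord plasma, 8.93, 9.11 and 9.22 with young plasma, 9.03, 9.12 and 9.18 with old plasma and 8.98, 9.16 and 9.22 with PBS. The groups overlapped, and PBS replicate 4 was the highest of the 28 arrays. The difference of Psmb1 from PBS was -0.10 (SE 0.04) with cord plasma, with an adjusted p of 0.525 in limma. Psmb2, Psmb3 and Psmb4 differed from PBS by between -0.06 and 0.07.

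Psmb11 encodes the beta subunit of the thymoproteasome, known from the cortical epithelium of the thymus, where it shapes the peptides that select CD8 T cells. Its row was dim, between 4.77 and 5.49 with the filter at 4.68. It had a lowest, median and highest log2 intensity of 4.92, 5.12 and 5.31 with cord plasma, 5.13, 5.22 and 5.49 with young plasma, 4.91, 5.04 and 5.09 with old plasma and 4.77, 4.87 and 5.10 with PBS. The young plasma arrays all lay above every PBS array and above every old plasma array, with replicate 7 the highest of the 28, while the cord and old plasma arrays overlapped those of PBS. The share of all genes whose young plasma arrays all lay above PBS was 0.165%, and the share whose old plasma arrays all lay below young plasma was 0.0507%.

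The difference of Psmb11 from PBS was 0.21 (SE 0.06, unadjusted p = 0.00153 in limma) with cord plasma, 0.32 (SE 0.06, unadjusted p = 1.06e-05 in limma) with young plasma and 0.09 (SE 0.06, unadjusted p = 0.138 in limma) with old plasma. The limma adjusted p was 0.317, 0.108 and 0.621. For old minus young plasma the difference was -0.23 (SE 0.06), with a limma adjusted p of 0.583, and for the mean of the plasma groups minus PBS 0.21 (SE 0.05), with 0.110. This last value passed, with an adjusted p of 0.0430, when each array was centred on its median. The 4 cortex markers Lamp5, Rspo1, Cux2 and Tbr1, genes of the tissue next to the hippocampus, were also higher than PBS with each plasma, 4 of 4 in each case. With cord, young and old plasma 1, 4 and 3 of them had an unadjusted p under 0.05 and none passed after adjustment in limma. Among all genes 4.96%, 6.07% and 6.62% were above PBS at that unadjusted p. The median differences of the cortex markers were 0.19, 0.48 and 0.37. Their mean log2 intensity ran from 6.99 to 7.91 with cord plasma, 7.30 to 8.10 with young plasma, 7.10 to 8.05 with old plasma and 7.06 to 7.36 with PBS. Of the 4 choroid plexus markers 0 lay above PBS with each plasma, at median differences of -0.47, -0.34 and -0.24. Of the 3 thalamus markers 0, 1 and 0 did. The part of any of these markers in the values of Psmb11 was not tested.

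**Figure D2:**
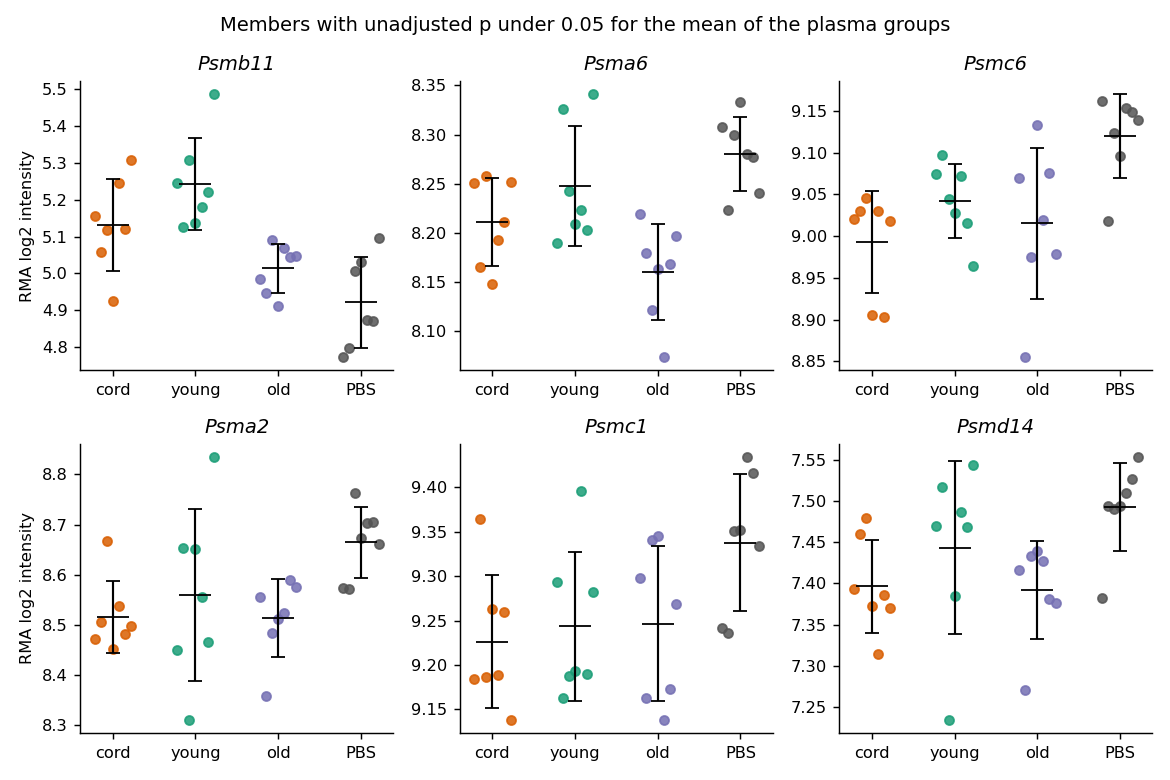
RMA log2 intensity (y axis, with its own range in each panel, not starting at 0) of Psmb11, Psma6, Psmc6, Psma2, Psmc1 and Psmd14 on every array, by group (x axis). Points are arrays in the order of their replicate numbers, and black marks the mean and SD of 7 arrays; the young plasma arrays of Psmb11 lie above all PBS arrays, the old plasma arrays of Psma6 lie below all PBS arrays, and the other panels show overlap of each plasma group with PBS.

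The interferon-inducible members are Psmb8, Psmb9 and Psmb10, which replace the catalytic subunits in the immunoproteasome, and Psme1 and Psme2, which form the PA28 activator cap. Psmb8 had a lowest, median and highest value of 5.82, 5.98 and 6.30 with cord plasma, 5.80, 5.93 and 6.24 with young plasma, 5.78, 5.91 and 6.02 with old plasma and 5.66, 6.01 and 6.38 with PBS. PBS replicate 4 was the highest of the 28 arrays, above the other 6 PBS arrays at 5.66 to 6.11, and PBS replicate 3 was the lowest. The groups overlapped, and Psmb8 had the largest spread of the members tested, with an SD within groups of 0.177. Its difference from PBS was 0.06 (95% interval -0.12 to 0.25) with cord plasma, 0.03 (-0.16 to 0.21) with young plasma and -0.09 (-0.28 to 0.09) with old plasma.

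On PBS replicate 4, Psme1 was also the highest of the 28 arrays, at 8.38 against 8.15 to 8.29 on the other 6 PBS arrays. Psmb10 was there at 8.29, second among the 28, against 8.03 to 8.22. Psmb9 at 4.91 and Psme2 at 6.40 stood 13 and 18 from the top. Of the inducible members, Psmb8, Psme1 and Psmb10 were thus at or next to the top on that array, and Psmb9 and Psme2 were not. Psma7 and Psmb1, which belong to the constitutive core, were highest on the same array too. Psma3, Psma6, Psmc4 and Psmd13, none of them inducible members, were second among the 28 there, as Psmb10 was. Within the PBS group that array was the highest for 9 of 47 members, against 10.8% of all genes. Differences from PBS ran from -0.07 to 0.09 for Psmb9 and Psmb10 and from -0.06 to 0.11 for Psme1 and Psme2, with no adjusted p under 0.05 in limma.

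Across arrays, 9 members were set against the mean of 29 interferon-stimulated genes: the 5 inducible ones, the 3 constitutive catalytic subunits and Psme3. Over the 27 arrays without PBS replicate 4, Psmb8 gave Pearson's r = 0.291 (permutation p = 0.142, 0.426 adjusted over the 9 relations) and Spearman's rho = 0.357 (permutation p = 0.0689, 0.310 adjusted). Leaving out young plasma replicates 4 and 7, the arrays farthest from the median of the interferon-stimulated genes, gave r = 0.201. Within groups r for Psmb8 was -0.251 with cord plasma, 0.139 with young plasma, 0.611 with old plasma and 0.828 over 6 PBS arrays, and no exact permutation p passed after adjustment.

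Psme1 gave r = 0.219 and rho = 0.208 over the 27 arrays (permutation p = 0.271 and 0.296, adjusted 0.501 and 0.532). Psme2 ran the other way, with r = -0.483 (permutation p = 0.0109, 0.0977 adjusted) and rho = -0.441 (permutation p = 0.0226, 0.204 adjusted), and with r = -0.393 without the 2 farthest arrays. Within groups r for Psme2 was -0.078 with cord plasma, -0.834 with young plasma, -0.390 with old plasma and -0.685 with PBS. With PBS replicate 4 included, Psmb8 reached r = 0.498 (adjusted permutation p = 0.0222) and Psme1 r = 0.494 (adjusted permutation p = 0.0226), which rest on that array. None of the other 6 relations passed over 27 or 28 arrays.

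**Figure D3:**
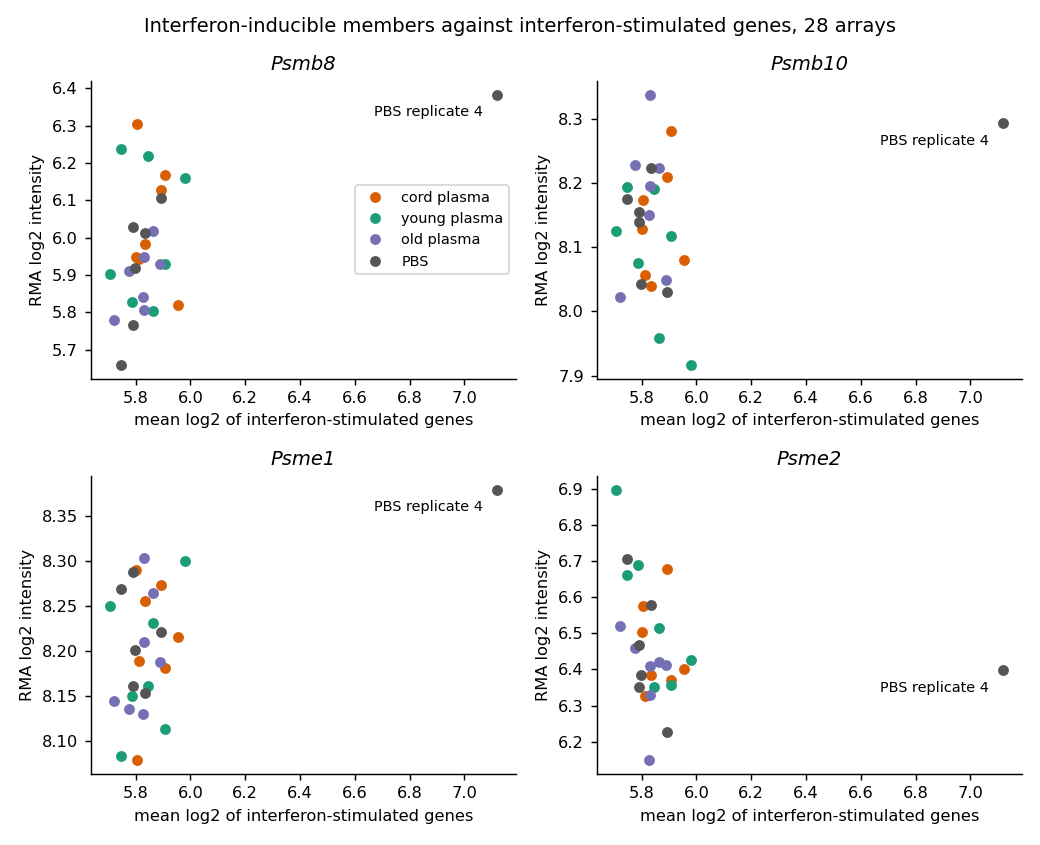
RMA log2 intensity of Psmb8, Psmb10, Psme1 and Psme2 (y axis) against the mean log2 intensity of 29 interferon-stimulated genes (x axis) on the 28 arrays, coloured by group. PBS replicate 4 lies alone on the right at 7.12, at the top for Psmb8 and Psme1, near the top for Psmb10 and below the middle for Psme2, while the other 27 arrays lie between 5.71 and 5.98.

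The base of the regulatory particle unfolds substrates with a ring of 6 ATPases, all of them measured. With cord plasma 4 of the 6 lay below PBS, with young plasma 4 and with old plasma 4, against 46.7%, 50.8% and 47.5% of all genes. Psmc6 had a lowest, median and highest value of 8.90, 9.02 and 9.05 with cord plasma, 8.96, 9.04 and 9.10 with young plasma, 8.86, 9.02 and 9.13 with old plasma and 9.02, 9.14 and 9.16 with PBS. Every group overlapped PBS, whose replicate 2 was well under its other 6 arrays. The difference from PBS was -0.13 (SE 0.04) with cord plasma, -0.08 (SE 0.04) with young plasma and -0.10 (SE 0.04) with old plasma, with limma adjusted p of 0.346, 0.460 and 0.315. Psmc6 had 2 further dim rows with a mean of 3.64 and the same values, and when the rows were averaged its difference for the mean of the plasma groups became 0.0053 (unadjusted p = 0.936 in limma), against -0.10 for the bright row alone. With the rows averaged the difference was also above 0 with young plasma, at 0.028, and with old plasma, at 0.034.

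Psmc1 had a lowest, median and highest value of 9.14, 9.19 and 9.36 with cord plasma, 9.16, 9.19 and 9.40 with young plasma, 9.14, 9.27 and 9.35 with old plasma and 9.24, 9.35 and 9.43 with PBS. All groups overlapped, and PBS replicates 1 and 2 lay at the low end of their group. The difference was -0.11 (SE 0.05) with cord plasma, -0.09 (SE 0.05) with young plasma and -0.09 (SE 0.05) with old plasma, with limma adjusted p of 0.507, 0.449 and 0.488. Psmc3 was the member with the smallest p between young and cord plasma, with a lowest, median and highest value of 7.96, 8.04 and 8.14 with young plasma and 8.09, 8.17 and 8.18 with cord plasma. The groups overlapped, and the difference was -0.10 (SE 0.04) with a limma adjusted p of 0.672. At an unadjusted p under 0.05 this was the 1 member below cord plasma, with 0 above, where the shares of all genes were 3.98% and 3.24%.

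The lid and the non-ATPase part of the base hold ubiquitin receptors and the deubiquitinase Psmd14, which removes the ubiquitin chain as the substrate enters. Psmd14 had a lowest, median and highest value of 7.31, 7.39 and 7.48 with cord plasma, 7.23, 7.47 and 7.54 with young plasma, 7.27, 7.42 and 7.44 with old plasma and 7.38, 7.49 and 7.55 with PBS. The cord and old plasma arrays overlapped PBS through PBS replicate 1 alone, the lowest of its group, while the young plasma arrays spread across the PBS range. Old plasma replicate 2 lay under the rest of its group. The difference from PBS was -0.10 (SE 0.04) with cord plasma, -0.05 (SE 0.04) with young plasma and -0.10 (SE 0.04) with old plasma, with limma adjusted p of 0.526, 0.673 and 0.371. Of the 11 genes of this class, 6 lay below PBS with cord plasma, 8 with young plasma and 8 with old plasma. The shares of all genes below PBS were 46.7%, 50.8% and 47.5%. The ubiquitin receptor Psmd4 differed from PBS by between -0.05 and 0.03, and the scaffold genes Psmd1 and Psmd2 by between -0.05 and 0.01.

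The activators and the inhibitor dock on the core in place of the regulatory particle. Psme4, the PA200 activator, had a lowest, median and highest value of 7.42, 7.49 and 7.52 with old plasma and 7.13, 7.39 and 7.56 with young plasma. The old plasma arrays lay within the wide spread of the young plasma arrays, whose replicates 3 and 7 were lowest. The difference for old minus young plasma was 0.12 (SE 0.05) with a limma adjusted p of 0.671. Psme2 had 6.15, 6.41 and 6.52 with old plasma and 6.35, 6.52 and 6.90 with young plasma, with overlap, and a difference of -0.17 (SE 0.08) with a limma adjusted p of 0.757. At an unadjusted p under 0.05, 3 members lay below young plasma (Psma6, Psmb11 and Psme2) and 1 above it (Psme4), where the shares of all genes were 3.26% and 3.28%. Between old and cord plasma limma gave 0 members at an unadjusted p under 0.05 in either direction, against 1.88% below and 2.33% above for all genes. Psme3, the nuclear PA28 gamma activator, differed from PBS by between 0.0015 and 0.05, and Psmf1, the inhibitor PI31, by between 0.02 and 0.07.

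Chaperones assemble the parts. Of the 4 core assembly chaperones, Psmg1 to Psmg4, 1 lay above PBS with cord plasma, 1 with young plasma and 4 with old plasma, where differences ran from 0.0074 to 0.03. The shares of all genes below PBS were 46.7%, 50.8% and 47.5% with cord, young and old plasma. With PBS replicate 4 left out 3 of the 4 lay above PBS with old plasma, and with renewed quantile normalization 2. The shares of all genes in these other fits are not given here. The base chaperones Psmd5, Psmd9 and Psmd10 differed from PBS by between -0.04 and 0.09. Psmc3ip, which is in the set by its name alone, differed by -0.15 (SE 0.07) with young plasma, with a limma adjusted p of 0.375.

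Genes of the pathway outside the rule were counted in the same way. Of 27 further genes of the proteasome and of ubiquitin handling, all tested, none passed in limma for any plasma against PBS. At an unadjusted p under 0.05, 1 was above and 1 below PBS with cord plasma: Pomp, the maturation factor of the core, at 0.13 (SE 0.06), and Adrm1, a ubiquitin receptor of the regulatory particle, at -0.09 (SE 0.04). With young plasma 1 was above and 1 below PBS, and the one below was the ubiquitin ligase Ube3a at -0.10 (SE 0.04). With old plasma 1 was above, the ubiquilin Ubqln4 at 0.16 (SE 0.06). The shares of all genes above PBS at that p were 4.96%, 6.07% and 6.62% with cord, young and old plasma. Those below PBS were 3.78%, 5.11% and 4.15%. Of 8 genes of antigen processing, which load the peptides that the proteasome makes, none passed in limma. At an unadjusted p under 0.05, 1, 2 and 0 lay below PBS with cord, young and old plasma, with 0 above, against the same shares of all genes.

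The position of single arrays showed in many members at once. Young plasma replicate 7 was the highest of its group for 24 of 47 members, against 25.3% of all genes, and old plasma replicate 2 the lowest of its group for 19 of 47, against 28.8% of all genes. The median deviation of the members from their group's median ran from -0.040 on PBS replicate 7, where 33 of 47 members lay below their group's median, to 0.088 on young plasma replicate 7. It was -0.035 on old plasma replicate 2, where 27 of 47 lay below, and 0.051 on PBS replicate 3. The PBS arrays enter every comparison of a plasma with PBS.

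**Figure D4:**
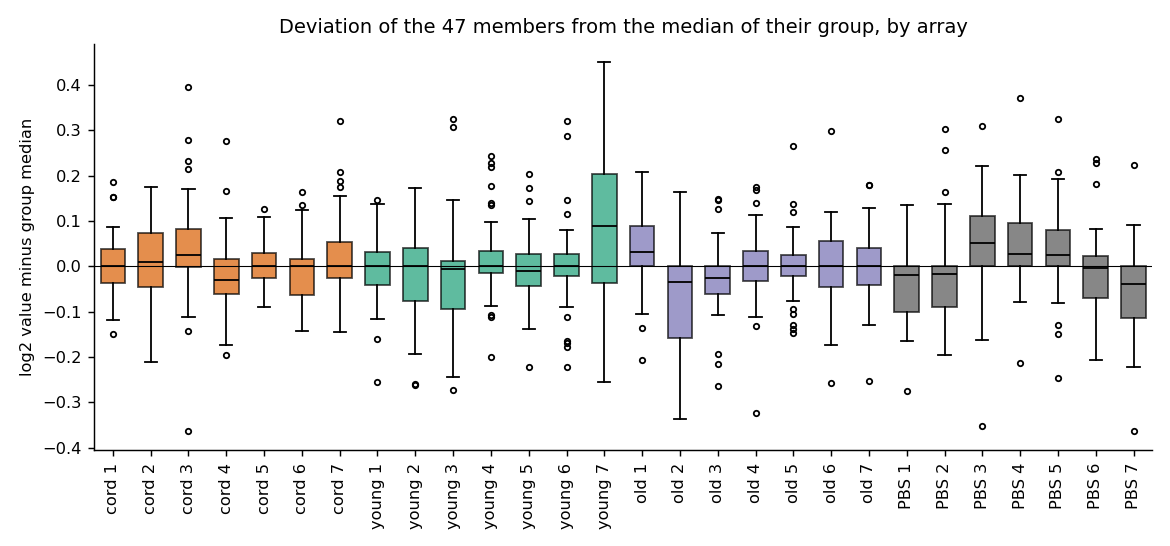
Deviation of the 47 members from the median of their own group on the log2 scale (y axis), for each of the 28 arrays (x axis, coloured by group). Boxes span the quartiles over members with the median as a line, whiskers reach 1.5 times the box length and circles lie beyond; young plasma replicate 7 lies highest with a median of 0.088, and PBS replicate 7 and old plasma replicate 2 have the lowest medians, -0.040 and -0.035.

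Promoters were read for the members named above for their lower values and for Psmb11 and Psmb8, with sequences of RefSeq on build GRCm38.p6. A promoter was given for 41 of the 49 members, among 27025 genes with a promoter in all, and the 250 bases before the start site were searched on both strands. The letters searched were CCAAT, the interferon-stimulated response element (GAAA, any pair of bases, GAAA), the gamma-activated site TTCNNNGAA and the antioxidant elements TGACNNNGC and TGAGNNNGC. CCAAT stood in 15 of 41 member promoters (36.6%), against 37.5% of all genes. TGAGNNNGC stood in 10 (24.4%), against 16.3% of all, and TGACNNNGC in 5 (12.2%), against 11.5%. The interferon-stimulated response element stood in 3 (7.32%), against 3.46% of all, and TTCNNNGAA in 2 (4.88%), against 8.13%. The members were chosen after their values were seen, and a match is a description of the letters only.

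The stretches of 120 bases that hold these letters are shown on the forward strand, 5′ to 3′, with each match in capitals. Of the 5 members with an unadjusted p under 0.05 below PBS for the mean of the plasma groups, Psma2, Psma6, Psmc1 and Psmd14 hold CCAAT or its reverse complement, and Psma6 and Psmc6 hold TGAGNNNGC on one of the strands. Psmc6 also holds TGACNNNGC, on the reverse strand. Psmb11 holds CCAAT, and Psmb8 holds TTCNNNGAA. The promoter of the inducible Psmb9, which holds CCAAT, held no match to the interferon-stimulated response element or the gamma-activated site. No match to any of the letters was counted for the inducible Psmb10, Psme1 and Psme2. A promoter was not given for every member, so for these genes that may also mean that no sequence was searched.
Psma2, chr13:14613073-14613192, forward strand: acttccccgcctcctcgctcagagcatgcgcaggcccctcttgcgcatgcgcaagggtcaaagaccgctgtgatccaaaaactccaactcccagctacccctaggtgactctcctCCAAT
Psma6, chr12:55383972-55384091, forward strand: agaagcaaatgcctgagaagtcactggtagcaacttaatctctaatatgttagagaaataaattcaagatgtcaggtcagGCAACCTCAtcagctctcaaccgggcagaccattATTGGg
Psmc1, chr12:100109952-100110071, forward strand: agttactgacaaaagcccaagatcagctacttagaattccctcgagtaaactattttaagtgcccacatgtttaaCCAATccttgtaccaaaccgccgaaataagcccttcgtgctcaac
Psmc6, chr14:45329574-45329693, forward strand: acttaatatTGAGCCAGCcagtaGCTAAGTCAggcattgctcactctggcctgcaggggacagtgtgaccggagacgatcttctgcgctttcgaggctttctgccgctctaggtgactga
Psmd14, chr2:61711444-61711563, forward strand: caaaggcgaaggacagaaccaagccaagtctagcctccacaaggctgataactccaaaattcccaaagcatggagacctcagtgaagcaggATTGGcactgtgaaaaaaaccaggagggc
Psmb11, chr14:54625060-54625179, forward strand: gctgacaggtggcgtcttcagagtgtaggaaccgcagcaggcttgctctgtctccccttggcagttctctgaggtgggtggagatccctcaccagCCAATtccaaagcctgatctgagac
Psmb8, chr17:34197987-34198106, forward strand: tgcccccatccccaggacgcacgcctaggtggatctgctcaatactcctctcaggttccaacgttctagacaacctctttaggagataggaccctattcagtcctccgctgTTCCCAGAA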

How the data were processed

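Hippocampal RNA was hybridised to whole-transcript arrays, 7 in each of 4 groups taken from the sample titles. Per the submitters' processing notes, the authors made the deposited log2 intensities with RMA, which corrects background, normalizes by quantiles and summarizes probes per row, so any shift common to most genes is reduced. The sources used here give neither its version nor a genome build. A second table deposited by the authors held group means and SDs on the log2 scale and unadjusted p-values, per the file headers. The value table had 41345 rows, and gene symbols came from the second table.

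The filter removed rows whose mean fell under 4.68 (log2), the 30th percentile of rows with a symbol, and the brightest row stood for a gene with several. Differences, SE and p-values came from limma 3.58.1 (R 4.3.3), fitted with a mean for every group to all 28 arrays, with eBayes and Benjamini-Hochberg adjustment over 15781 genes at 0.05. The 95% intervals use the moderated SE. Correlations used 100000 permutations, or all orders within groups. Members, gene lists and tests were chosen with earlier results of these data known. Named genes are members, the 5 with the smallest unadjusted p per comparison among them, and up to 6 genes per list. Tried besides were dropping the filter, raising it to the 50th percentile, averaging a gene's rows, renewed quantile normalization, centring on array medians, a trended and robust fit, a replicate block, the arrays of 2 groups alone, leaving out Psmc3ip, and leaving out each array. Replicate numbers were not used to pair arrays in the main fit, and whether they pair arrays is not in the labels. Over 42 pairs of equal number the correlation of deviations ran from -0.189 to 0.414, with a median of 0.020. Of these 12 were over 0.1, among them all pairs of replicate 4, at 0.116 to 0.414. The fit was also tested on simulated arrays, for cord plasma minus PBS, with 50 genes changed at each of several sizes. It called 0% of changes of 0.1 on the log2 scale, 8% of 0.15, 54% of 0.25 and 90% of 0.5, with 4 false calls. Gene promoters came from RefSeq on GRCm38.p6; the arrays' files name no build, so these coordinates belong to the promoters alone. The name and value of 1 gene counted in the lists are not reported here.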

Additional observations from a re-analysis of the deposited data

Results flagged for a closer look

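For each member and group, the gap of the highest or lowest of the 7 arrays to its nearest neighbour was compared with the group's range. The gap was large in 17 of 196 cases, where chance alone gives about 1 in 20, or 9.8. Old plasma replicate 2 was far below its group for 6 members: Psma3 at 9.8207, Psma4 at 8.2472, Psmc2 at 8.6313, Psmd14 at 7.2706, Psmd6 at 7.7893 and Psmd7 at 8.9788. Young plasma replicate 7 was far above its group for Psmb6 at 8.5001, Psmd4 at 8.0853 and Psmf1 at 7.5278.

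Cord plasma replicate 3 was far above its group for Psma2 at 8.6679, Psmb3 at 6.5615 and Psmb5 at 8.709. Cord plasma replicate 6 was low for Psmc3 at 8.0852 and high for Psmg4 at 5.1068, and cord plasma replicate 2 was high for Psma4 at 8.56. PBS replicate 1 was low for Psmd14 at 7.3826. Psma5, which lay below the filter, read 4.2153 on old plasma replicate 3, the highest of its group. The cause of these values was not tested.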

How the results depend on the processing

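No member passed in limma except Psmb11: with the replicate block it was the 1 member that passed for young plasma minus PBS, at 0.32 and an adjusted p of 0.0167, and with each array centred on its median the 1 that passed for the mean of the plasma groups, at 0.23 and 0.0430. In that centred comparison 18 of all genes passed, against 3 without centring. For old plasma minus PBS, 104 of all genes passed with centring, against 0 without. The block changed no other call at an adjusted p of 0.05. The correlation of deviations over pairs of equal number had a median of 0.020, with all pairs of replicate 4 over 0.1. Pairs of unequal number were not set beside them, so whether equal numbers go together cannot be told. A filter at the 50th percentile drops Psmb11. Counts of members below PBS at an unadjusted p under 0.05, examined after seeing the data, fell to 2 with cord plasma, 1 with old plasma and 2 for the mean of the plasma groups under centring, against 6, 4 and 5. Leaving out single arrays gave 3 (without PBS replicate 5) to 7 with cord plasma, 0 to 4 with young plasma, against 1, and 5 to 8 (without PBS replicate 6) for the mean. With all 28 arrays the correlation with interferon-stimulated genes was 0.498 for Psmb8 and 0.494 for Psme1, and both rest on PBS replicate 4. Differences near 0 turned sign: Psmb8 for the mean of the plasma groups, -0.00031, became 0.0048 with renewed quantile normalization and 0.018 with centring, and Psmb10 with cord plasma, -0.013, became 0.011 with centring. Centring also turned Psmb1, Psmc3 and Psmc3ip with old plasma (-0.017, -0.023 and -0.029) to 0.020, 0.014 and 0.0087, Psmc3 for the mean (-0.0091) to 0.0088, and Psme4 with cord plasma and for the mean (-0.00051 and -0.018) to 0.024 and 0.00029. Averaging the rows turned Psmc6 with young plasma, old plasma and for the mean, from -0.078, -0.10 and -0.10 to 0.028, 0.034 and 0.0053. Leaving out single arrays, differences from PBS ran from -0.024 to 0.096 for Psmb8 with young plasma and -0.054 to 0.067 for the mean. They ran from -0.029 to 0.068 for Psmb9 with young plasma and -0.015 to 0.054 with old plasma. For Psmb10 they ran from -0.037 to 0.011 with cord plasma, -0.0065 to 0.046 with old plasma and -0.040 to 0.0034 for the mean, and for Psme2 from -0.018 to 0.062 with cord plasma and -0.013 to 0.067 for the mean. The cause was not tested. Signal over background is not stated in the files, so how far dim rows limit these values was not tested.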
